A study of Mus musculus with 8 samples.

Results

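Genes that mark hepatocytes, liver endothelium and liver macrophages were followed through 8 arrays of sorted mouse hepatic stellate cells. The 38 genes were taken from marker lists that were chosen with earlier results of these data known. Each gene was read from its brightest probe set by mean level, among those to which the platform annotation gave a single gene symbol. Of the 38 genes, 37 were measured, out of 19938 genes on the array with such a probe set. They were 17 hepatocyte genes, 11 endothelial genes, 8 macrophage genes and Ptprc, the leukocyte surface protein CD45. Ass1, a urea cycle enzyme, was listed too but shared its probe set with other genes and was not used.

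The control group, arrays 1 to 4, came from Lhx2 f/f mice that lack Cre. The knockout group, arrays 5 to 8, came from Lhx2 f/f mice positive for Mx1Cre. All mice were on a C57BL/6J background and were dosed 3 times with poly(I:C), a synthetic RNA that triggers interferon; the age of the mice was not given in the sources used here. The cells were taken 2 weeks later on a density gradient and sorted by the autofluorescence of their retinoids. The Mx1 promoter answers to interferon in many cell types, hepatocytes, endothelium and blood cells included, so Lhx2 may be deleted outside stellate cells, and the transgene itself and the loss of Lhx2 cannot be told apart. Whether arrays of a group stand for different animals is not stated, and p-values then measure only how far these arrays spread, which may be technical.

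Stellate cells lie between hepatocytes and the fenestrated endothelium of the liver sinusoid, and Kupffer cells, the resident macrophages, sit on the luminal side of the same vessel. Hepatocytes make most plasma proteins and hold the enzymes of drug and ammonia metabolism, and they divide this work along the sinusoid, with cytochrome P450 enzymes such as Cyp2e1 near the central vein and urea cycle enzymes such as Cps1 near the portal vein. Sinusoidal endothelial cells clear macromolecules through the scavenger receptors Stab1 and Stab2, and Kupffer cells clear particles and microbes through receptors such as Clec4f, Vsig4 and Marco. In a sort of stellate cells such genes can report RNA of neighbouring cells, RNA made by the stellate cells, or both. These arrays measure pooled RNA, so more cells of a type and more RNA per cell cannot be told apart.

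Values are deposited log2 expression levels, in which 1 unit is a doubling of the measured level. The deleted gene, Lhx2, read 12.07, 11.88, 11.94 and 11.92 in the control arrays and 11.09, 11.24, 11.35 and 11.49 in the knockout arrays (difference -0.66, SE 0.09, limma adjusted p = 0.00136); which part of the gene is floxed is not stated, and its probes may lie outside that part. Stellate cell markers were bright throughout: the mean of 13 such genes lay between 12.91 and 13.00 in the control and between 12.71 and 12.73 in the knockout group, and 5 of them fell, led by Gfap (-1.48), Tcf21 (-0.49) and Hand2 (-0.48). As a guide to the level of unexpressed genes, 95% of 1194 olfactory and vomeronasal receptor genes had a mean under 6.77. The means of 9 lymphocyte, 7 neutrophil and 7 cholangiocyte genes ranged over 5.97 to 6.18, 5.96 to 6.10 and 6.42 to 6.62. The mean of 7 erythroid and platelet genes, from 7.56 to 7.76, was above the guide level in all arrays. Among them Pf4, a platelet chemokine, rose by 0.69 and Itga2b, a platelet integrin, fell by 1.44, both without overlap of the groups; their part in the results was not tested. By contrast 35 of the 37 members had a mean above the guide level, and 30 were above it in every array. Of all 19938 genes 13688 had a mean above that level.

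The members fell into blocks that went up and down together from array to array. For 31 of the 37 less than 50% of the variance lay between the groups. The 6 with more were Clec4g, Gpr182, Ehd3, Clec4f, Vsig4 and Cd68. The share of all genes with more was not worked out, so these counts are not read as a trait of the members. Every one of 136 pairs of hepatocyte genes correlated positively over the 8 arrays (median Pearson r 0.94), as did every one of 55 pairs of endothelial genes (median 0.92). Of 187 pairs of a hepatocyte and an endothelial gene 7 correlated positively (median -0.59). The 36 pairs of macrophage genes had a median of 0.30, with 25 positive. These correlations are descriptions, since all pairs share the same 8 arrays and the same RNA.

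**Figure D1:**
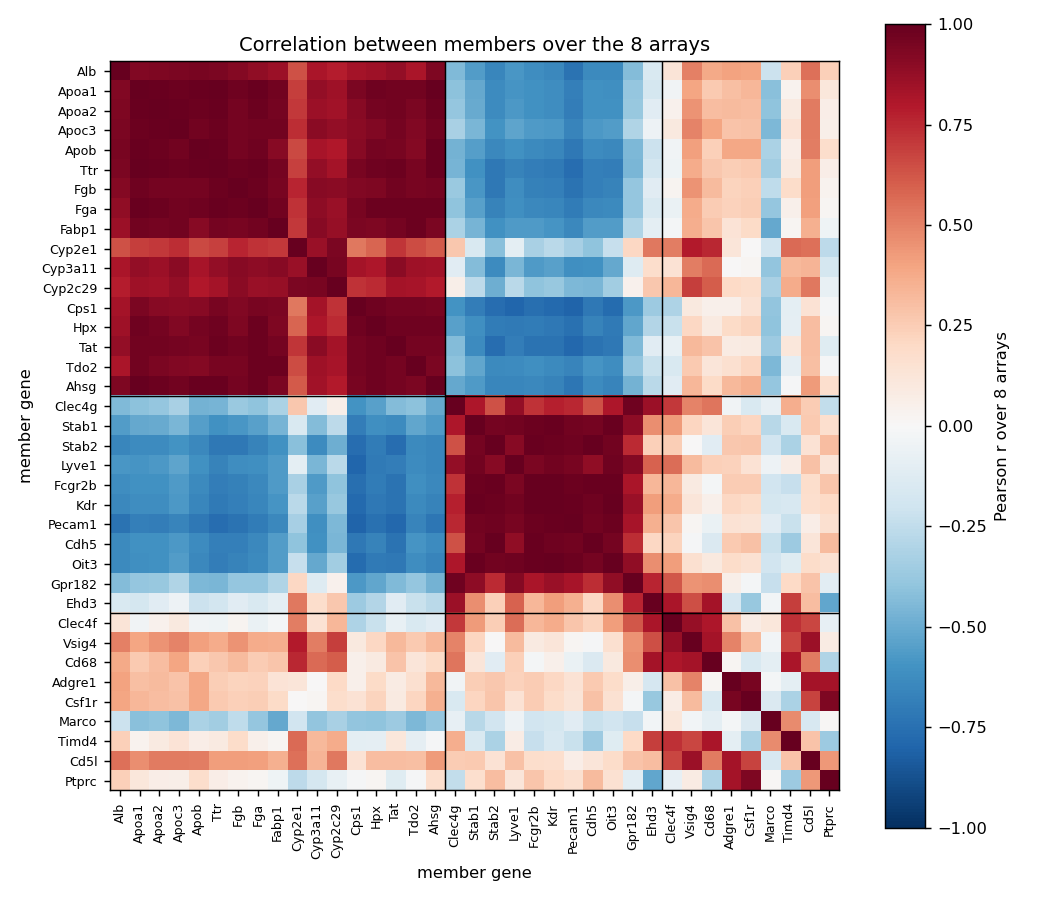
Pearson correlation over the 8 arrays between each pair of the 37 members (rows and columns, hepatocyte, endothelial and macrophage genes separated by black lines; red positive, blue negative). The hepatocyte block has a median r of 0.94 and the endothelial block 0.92, and the block between them -0.59. All endothelial pairs are positive, those of Ehd3 included. With the mean of non-member genes of their own cell type, Ehd3, Cd68 and Marco have an r of 0.234, 0.181 and -0.141.

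Hepatocyte genes were present in every array, and none of the 17 differed between the groups in the fit over all genes. Alb, serum albumin, read 13.55, 13.14, 13.32 and 12.01 in control arrays 1 to 4 and 13.05, 12.56, 13.34 and 13.21 in knockout arrays 5 to 8. Apoa1, the main protein of high-density lipoprotein, read 11.82, 10.83, 11.67 and 9.90 in the control and 10.85, 10.33, 11.93 and 11.22 in the knockout arrays. Both were lowest in control 4 and overlapped between the groups. The difference was 0.04 (SE 0.31, limma adjusted p = 0.978) for Alb and 0.03 (SE 0.45, limma adjusted p = 0.99) for Apoa1. At a limma adjusted p under 0.05, 0 of the 17 passed, while 7.38% of all genes tested did (3.76% higher and 3.63% lower). At an unadjusted limma p under 0.05, 1 of the 17 passed, and 3484 of all 19938 genes. The median difference of the 17 was -0.02, which is also that of all genes.

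**Figure D2:**
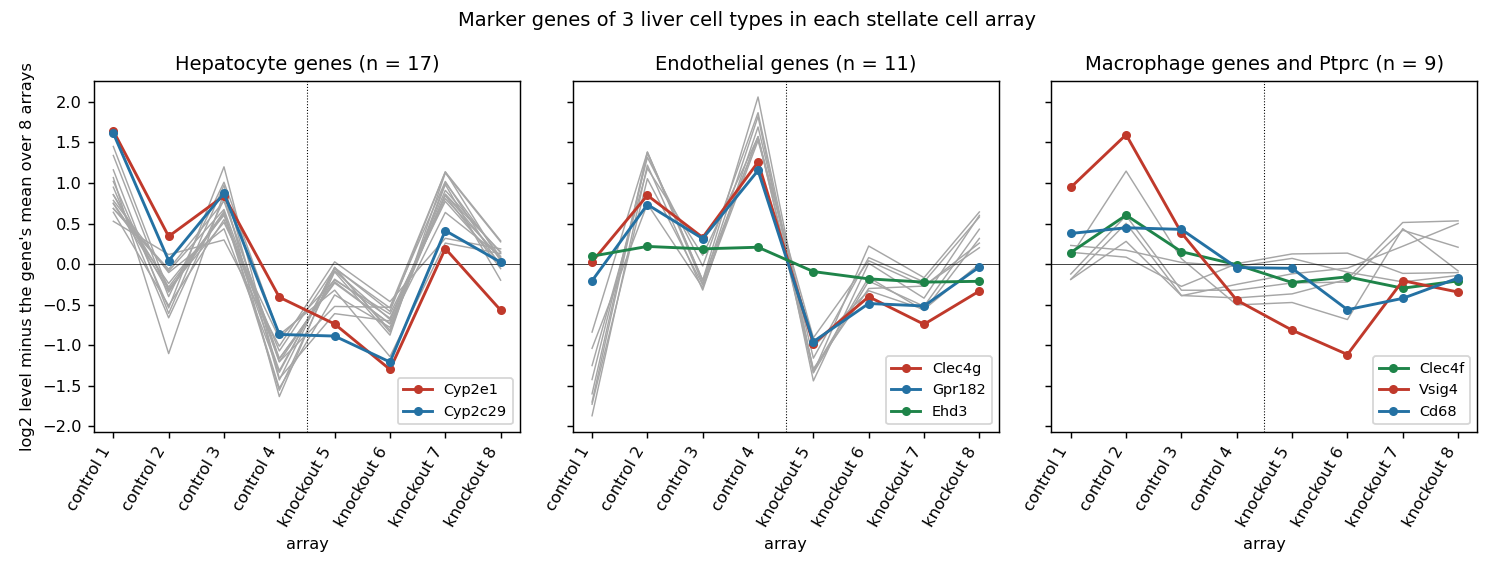
Log2 level of each member minus its own mean over the 8 arrays (y axis) in each array (x axis, control left and knockout right of the dotted line). Each line joins the values of 1 gene and named genes are coloured. Hepatocyte genes are high in control 1, control 3 and knockout 7 and low in control 4 and knockout 6, endothelial genes are high in control 2 and control 4 and low in control 1 and knockout 5, and Ehd3 steps down between the groups.

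The spread between arrays was wide, also within a genotype. Fgb spanned 2.98 log2 units among the control and 1.64 among the knockout arrays, and Cps1 2.70 and 1.72. The folds that follow are taken over all 8 arrays. The level of Fgb, the fibrinogen beta chain, ranged 7.88-fold over the arrays, from 8.81 in control 4 to 11.79 in control 1. Cps1, the entry enzyme of the urea cycle, ranged 6.79-fold, from 7.64 in control 4 to 10.41 in knockout 7. Fabp1, the liver fatty acid binding protein, ranged 6.10-fold, from 7.54 in control 4 to 10.15 in control 3. The smallest range of the 17 was that of Alb at 2.90-fold. Control 4 was the lowest array for 14 of the 17 genes and knockout 6 for the other 3, and the highest was control 1, control 3 or knockout 7 for all 17. The lipoprotein genes Apoa2, Apoc3 and Apob, the thyroxine carrier Ttr, the haem carrier Hpx and the fetuin gene Ahsg ranged from 3.85-fold (Apoc3) to 6.42-fold (Ahsg), with differences between the groups from -0.12 to 0.21. Tat and Tdo2, which start the breakdown of tyrosine and tryptophan, ranged 6.04-fold and 5.06-fold with differences of -0.05 and 0.06.

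To set members that moved with their cell type apart from members that differed by genotype, each was compared with the mean of genes of the same cell type that are not members. Both lists were chosen with earlier results of these data known, so the shares of members and of all genes are set side by side as descriptions. For hepatocytes this was the mean of 23 further genes, among them Serpinc1, antithrombin, and Hpd, an enzyme of tyrosine breakdown. That mean was 8.97, 8.0, 8.83 and 7.46 in the control and 8.15, 7.83, 9.02 and 8.25 in the knockout arrays. Its group means were 8.31 ± 0.71 and 8.32 ± 0.50 (SD, n = 4 each), so its spread lay within the groups. Of the 17 members 16 had an r of at least 0.8 with it, against 2.54% of 19915 genes. On deviations from the group means, which leave out any difference between the groups, all 17 did, against 4.46%.

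For 10 of the 17 the relation passed at an adjusted p under 0.05 over all genes, in an exact two-sided permutation test over all 40320 pairings of the arrays, against 0.437% of genes. Fga, the fibrinogen alpha chain, had r = 0.997 and Spearman's rho = 1 (exact permutation p = 2.48e-05, adjusted 0.0291, and 4.96e-05, adjusted 0.0471). The Pearson p of Fga is the smallest that 8 arrays allow, so a pass over all genes also depends on how many other genes have a p near it. Without control 1 and knockout 7, the arrays farthest from the median of the hepatocyte mean, its r was 0.993. Alb had r = 0.878 (exact permutation p = 0.000273, adjusted 0.0504) and rho = 0.952 (exact permutation p = 0.00114, adjusted 0.135), and 0.867 without those arrays.

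Of the other 7, Alb, Apoc3, Fabp1 and Cps1 had adjusted values from 0.0504 to 0.0824, and Cyp2e1, Cyp3a11 and Cyp2c29, cytochromes P450, from 0.274 to 0.701. The member with an r under 0.8 was Cyp2e1. Cyp2e1, a pericentral enzyme that oxidises ethanol and small solvents, read 11.68, 10.38, 10.88 and 9.63 in the control and 9.30, 8.74, 10.23 and 9.47 in the knockout arrays. It had an r of 0.703 with the hepatocyte mean over all arrays (exact permutation p = 0.0523, adjusted 0.701; rho 0.548, exact permutation p = 0.171, adjusted 0.921), 0.59 without control 1 and knockout 7, and 0.962 on deviations from the group means. The knockout arrays thus lay on a line of their own under that of the control arrays. With no covariate its difference was -1.21 (SE 0.43, limma adjusted p = 0.157). With the hepatocyte mean as a covariate in the fit over all genes it was again -1.21 with an SE of 0.13, and Cyp2e1 fell (limma adjusted p = 0.000407), while 8.23% of all genes were called in that fit, 4.07% lower.

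The upstream bases of Alb and Cyp2e1 are shown because Alb moved with the hepatocyte mean and Cyp2e1 did so at a lower level in the knockout arrays. They are the 250 bases before the start site from RefSeq (GRCm38.p6), at chr5:90460620-90460869 (plus strand) and chr7:140763569-140763818 (plus strand). Capitals mark GTTAAT, the core recognised by HNF1, a hepatocyte transcription factor, TATAAA, the TATA box, and AGGAAG, an ETS core, on either strand, with a match on the reverse strand shown as its reverse complement.
Alb: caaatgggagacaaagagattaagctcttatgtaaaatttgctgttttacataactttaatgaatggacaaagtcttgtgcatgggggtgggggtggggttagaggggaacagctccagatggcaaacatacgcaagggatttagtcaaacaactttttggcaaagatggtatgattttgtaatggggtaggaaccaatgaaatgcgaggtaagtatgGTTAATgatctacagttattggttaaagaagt
Cyp2e1: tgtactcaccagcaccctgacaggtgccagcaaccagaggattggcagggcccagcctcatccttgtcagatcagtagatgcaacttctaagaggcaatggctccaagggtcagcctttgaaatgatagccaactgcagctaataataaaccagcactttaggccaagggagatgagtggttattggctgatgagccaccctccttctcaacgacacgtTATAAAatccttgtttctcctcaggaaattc
The capitals are GTTAAT in Alb and TATAAA in Cyp2e1, 1 match in each. Over 16 promoters of hepatocyte members in the table, 4 held GTTAAT (25%) and 7 held TATAAA (43.8%), against 6.43% and 12.4% of all 32851 promoters in windows of the same length. A match of these letters is a description and not a measured site.

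Cyp2c29, a cytochrome P450 of drug metabolism, read 9.58, 8.01, 8.84 and 7.10 in the control and 7.08, 6.76, 8.38 and 7.99 in the knockout arrays, and the groups overlapped. Its difference was -0.83 with the hepatocyte mean (SE 0.18, limma adjusted p = 0.0209), and -0.83 without it (SE 0.53, limma adjusted p = 0.532). The call with the covariate was lost when control 1, control 2, control 4, knockout 5, knockout 6 or knockout 7 was left out (limma adjusted p up to 0.0754). Cyp2c29 has close paralogs, among which the array may not separate all transcripts. Cyp3a11, the main hepatic CYP3A enzyme of the mouse, had a difference of -0.54 with the covariate (SE 0.19, limma adjusted p = 0.14), and was called lower with the median in place of the mean (0.0332), with array weights (0.0427) and without knockout 8 (0.0333). For the other 14 hepatocyte members the covariate narrowed the SE to between 0.06 and 0.16, and none of them passed.

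The zonation of hepatocyte genes was followed in lists of pericentral and periportal genes, which hold some of the members. All 8 pericentral genes were lower and all 6 measured periportal genes were higher in the knockout arrays, with medians of -0.36 and 0.32. Yet 0 of the 14 passed limma with no covariate, where 7.38% of all genes did. An unadjusted limma p under 0.05 was found for 3 of the 14, and for 3484 of all 19938 genes. With the hepatocyte mean as covariate, Cyp2e1 and Rgn, regucalcin, fell (Rgn -0.61, SE 0.16, limma adjusted p = 0.0458), and Cyp2f2, a periportal cytochrome P450, and Hal, histidine ammonia lyase, rose. The rise was 0.50 for Cyp2f2 (SE 0.09, limma adjusted p = 0.00704) and 0.41 for Hal (SE 0.09, limma adjusted p = 0.028), in a fit where 4.16% of all genes were called higher. Cps1 had a difference of 0.39 (SE 0.14, limma adjusted p = 0.156) and Cyp1a2, a pericentral P450, of -0.73 (SE 0.21, limma adjusted p = 0.0766). Rgn, Lect2 and Hsd17b13 lay under the guide level on average (means 6.21, 6.04 and 6.51), Glul and Oat did not follow the hepatocyte mean (r = -0.698 and -0.251, as descriptions), and Arg1 is part of that mean. Hal lost its call without control 2, control 3, knockout 6, knockout 7 or knockout 8 (limma adjusted p up to 0.0988) and with a median in place of the mean (0.152), and Rgn without control 2, control 4, knockout 5, knockout 7 or knockout 8 (up to 0.142), with the median (0.0765) and with a trended, robust variance model (0.0528), while Cyp2e1 and Cyp2f2 kept theirs without each array in turn.

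Endothelial genes showed a different order of arrays. Stab2, a hyaluronan and scavenger receptor of sinusoidal endothelium, read 7.79, 10.88, 9.34 and 11.35 in the control and 8.50, 9.74, 9.44 and 10.24 in the knockout arrays. Kdr, the VEGF receptor 2, read 7.71, 10.69, 9.11 and 11.37 in the control and 7.97, 9.10, 8.79 and 9.74 in the knockout arrays, a 12.7-fold range. Both were lowest in control 1 and highest in control 4, so the control group alone spanned the whole range. The difference between the groups was -0.36 for Stab2 (SE 0.71, limma adjusted p = 0.896) and -0.82 for Kdr (SE 0.72, limma adjusted p = 0.702). Fcgr2b, an inhibitory Fc receptor that clears immune complexes in sinusoids, ranged 11.4-fold (difference -0.62), Cdh5, VE-cadherin, 9.85-fold (-0.32) and Pecam1, the adhesion molecule CD31, 5.93-fold (-0.47), each lowest in control 1 and highest in control 4.

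The arrays rich in endothelial genes were poor in hepatocyte genes. The mean of 22 further endothelial genes, among them Tek and Tie1, receptors of the angiopoietin pathway, was 8.58, 9.96, 9.19 and 10.35 in the control and 8.84, 9.45, 9.38 and 9.66 in the knockout arrays. Its r with the hepatocyte mean was -0.693 (exact permutation p = 0.0574, adjusted over 3 relations 0.172) and Spearman's rho -0.667 (exact permutation p = 0.0831, adjusted 0.249). It was -0.652 without control 1 and knockout 7 and -0.704 on deviations from the group means, so the opposition of the means did not pass the test. With the macrophage mean the hepatocyte mean had r = 0.31 (exact permutation p = 0.449, adjusted 0.633; rho 0.524, exact permutation p = 0.197, adjusted 0.295) and the endothelial mean r = 0.2 (exact permutation p = 0.633, adjusted 0.633; rho 0.0476, exact permutation p = 0.935, adjusted 0.935). That last r was 0.798 without control 1 and control 4, and the hepatocyte one was 0.135 without control 1 and knockout 7.

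**Figure D3:**
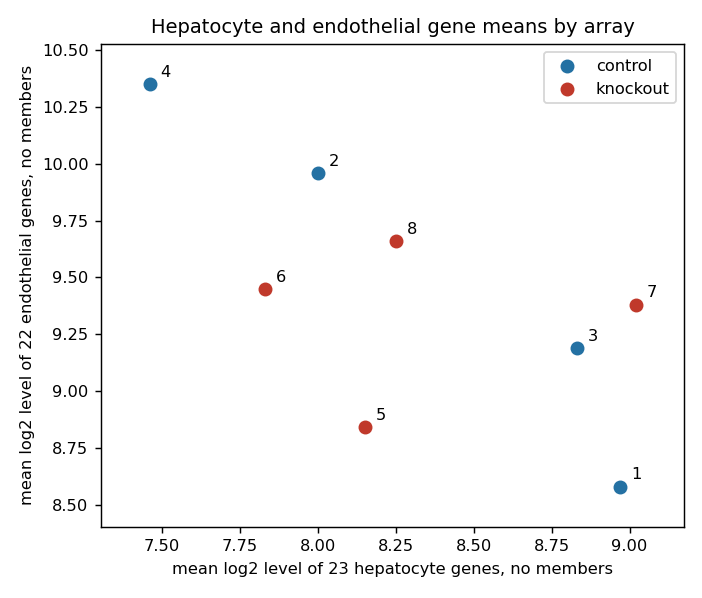
Mean log2 level of 23 hepatocyte genes (x axis) and 22 endothelial genes (y axis), no members among them, with 1 point for each array, numbered, control in blue and knockout in red. Control 4 has the lowest hepatocyte mean (7.46) and the highest endothelial mean (10.35), control 1 the lowest endothelial mean (8.58), and the knockout arrays lie within the range of the control arrays except for the hepatocyte mean of knockout 7 (9.02).

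Of the 11 endothelial members, 8 had an r of at least 0.8 with the endothelial mean (1.51% of 19916 genes did), and 10 had one on deviations from the group means (2.66%). Stab2, Pecam1 and Cdh5 passed at an adjusted p under 0.05 over all genes, against 0.115% of genes. Stab2 had r = 0.993 (exact permutation p = 4.96e-05, adjusted 0.0412) and rho = 1 (exact permutation p = 4.96e-05, adjusted 0.0618), and r was 0.993 without control 1 and control 4. The members that stood apart were Clec4g (r = 0.656, exact permutation p = 0.0783, adjusted 0.967; rho 0.548, exact permutation p = 0.171, adjusted 0.997), Gpr182 (r = 0.755, exact permutation p = 0.0305, adjusted 0.909; rho 0.667, exact permutation p = 0.0831, adjusted 0.997) and Ehd3 (r = 0.234, exact permutation p = 0.565, adjusted 0.998; rho 0.286, exact permutation p = 0.501, adjusted 0.997). Without control 1 and control 4 their r was 0.671, 0.731 and 0.194. On deviations from the group means Clec4g and Gpr182 reached 0.973, and Ehd3 0.242.

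Clec4g and Ehd3 fell in the knockout group with no covariate, the 2 of 11 endothelial members to pass, against 3.63% of all genes called lower. Ehd3, a dynamin-like ATPase of membrane recycling, read 13.62, 13.74, 13.71 and 13.73 in the control and 13.43, 13.34, 13.30 and 13.31 in the knockout arrays. The groups did not overlap, and the control arrays lay close together although Stab2 varied widely among them. The difference was -0.36 (SE 0.05, limma adjusted p = 0.00299), and -0.35 with the endothelial mean as covariate (SE 0.06, limma adjusted p = 0.00618).

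Clec4g, a C-type lectin of sinusoidal endothelium, read 11.74, 12.56, 12.04 and 12.97 in the control and 10.73, 11.31, 10.97 and 11.38 in the knockout arrays. Every knockout array lay under every control array, and within each group the order was that of the endothelial mean. The difference was -1.23 with no covariate (SE 0.25, limma adjusted p = 0.0177), a call lost without control 2 or knockout 5 (limma adjusted p up to 0.058) and with a trended, robust variance model (0.0652). With the covariate it was -1.10 (SE 0.08, limma adjusted p = 4.93e-05). Clec4g has 2 probe sets, and with their mean in place of the brighter one the difference with the covariate was smaller (-0.72, SE 0.08, limma adjusted p = 0.000567). Control 1, where Stab2, Kdr and Cdh5 read under 8, still had 11.74 for Clec4g. Gpr182, a chemokine-scavenging receptor of endothelium, read 10.17, 11.11, 10.69 and 11.53 in the control and 9.42, 9.89, 9.86 and 10.34 in the knockout arrays. It missed the threshold with no covariate (-1.0, SE 0.28, limma adjusted p = 0.0695) and fell with the covariate (-0.85, SE 0.08, limma adjusted p = 0.000315).

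The upstream bases of Stab2, Clec4g and Ehd3 are shown as those of a member that moved with the endothelial mean, of one that did so at a lower level in the knockout group, and of one that differed by group without following that mean. From RefSeq (GRCm38.p6) they lie at chr10:87007943-87008192 (minus strand), chr8:3720652-3720901 (minus strand) and chr17:73804591-73804840 (plus strand), with capitals as above.
Stab2: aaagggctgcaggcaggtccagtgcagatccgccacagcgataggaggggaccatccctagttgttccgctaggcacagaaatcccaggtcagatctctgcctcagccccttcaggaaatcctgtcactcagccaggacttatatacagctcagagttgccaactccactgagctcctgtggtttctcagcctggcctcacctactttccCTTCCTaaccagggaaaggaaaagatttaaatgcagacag
Clec4g: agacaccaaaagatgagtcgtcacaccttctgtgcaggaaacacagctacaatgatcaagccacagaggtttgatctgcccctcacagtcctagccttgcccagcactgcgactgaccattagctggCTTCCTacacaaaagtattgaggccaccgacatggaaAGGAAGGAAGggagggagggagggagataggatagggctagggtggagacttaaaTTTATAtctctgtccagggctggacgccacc
Ehd3: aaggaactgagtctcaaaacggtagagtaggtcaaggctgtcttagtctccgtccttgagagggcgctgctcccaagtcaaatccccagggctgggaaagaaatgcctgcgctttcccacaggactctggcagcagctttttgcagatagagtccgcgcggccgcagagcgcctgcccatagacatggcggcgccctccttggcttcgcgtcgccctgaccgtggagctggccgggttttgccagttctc
Stab2 holds an AGGAAG core on the reverse strand, Clec4g one on the reverse strand, a pair on the forward strand that overlap by 2 bases, and TATAAA on the reverse strand, and the 250 bases of Ehd3 none of the 3 motifs. AGGAAG was found in 3 of 6 promoters of endothelial members (50%) and in 29.5% of all promoters.

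**Figure D4:**
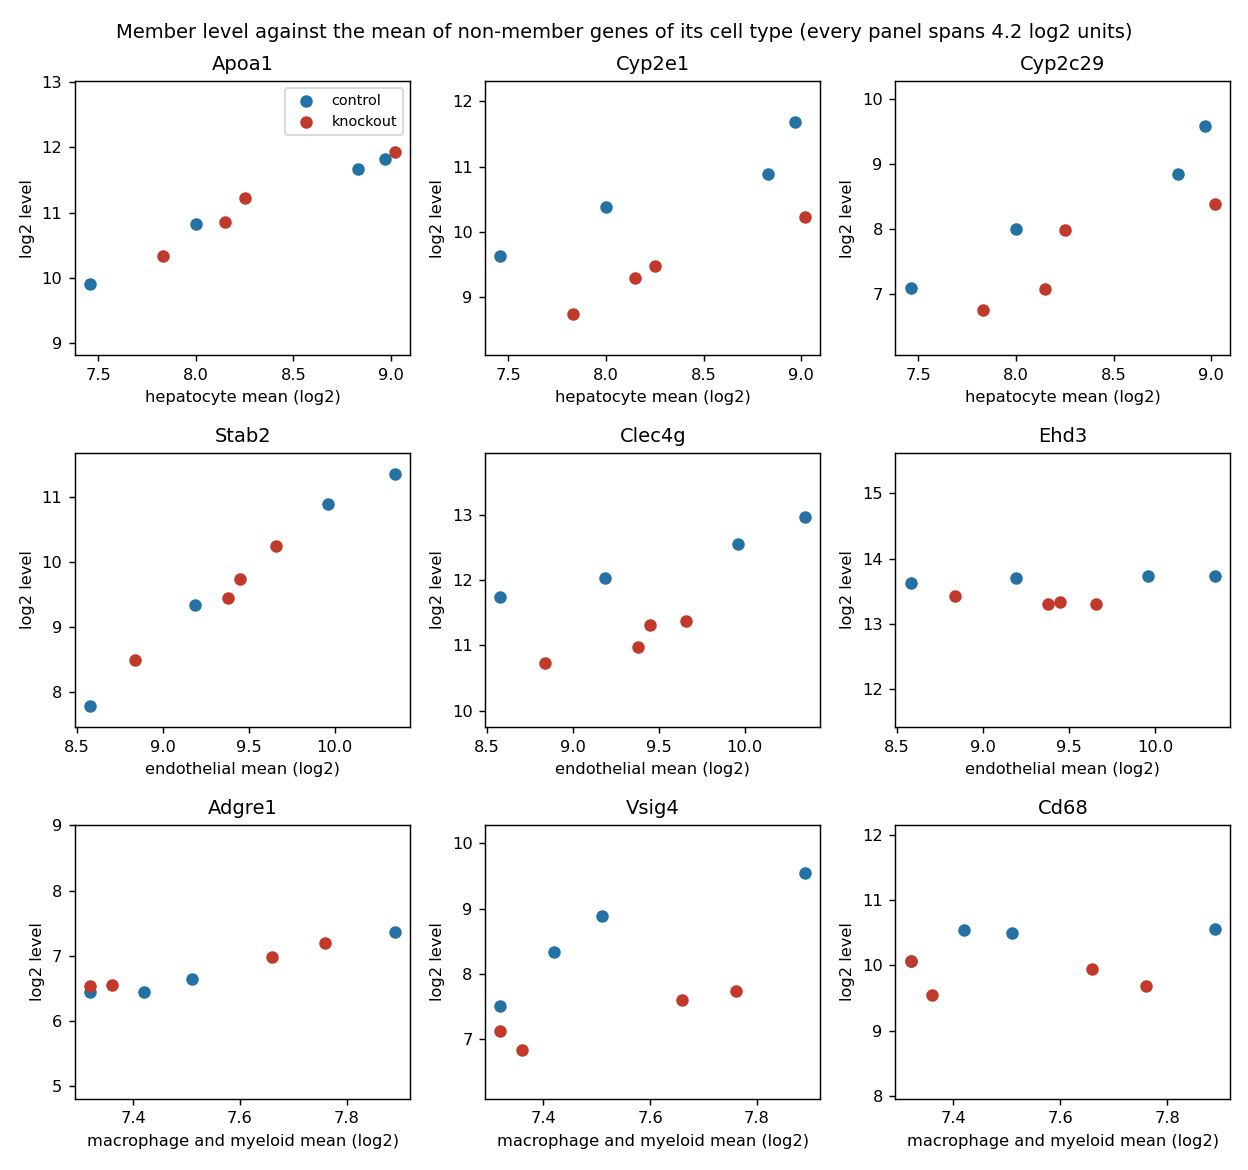
Log2 level of 9 members (y axis, the same span of 4.2 log2 units in each panel) against the mean log2 level of the non-member genes of the same cell type (x axis), 1 point for each array, control in blue and knockout in red. Apoa1, Stab2 and Adgre1 lie on 1 line for both groups, Cyp2e1 and Clec4g on parallel lines with the knockout lower, and Ehd3 is flat with the knockout lower.

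With the endothelial mean as covariate 7 of the 11 fell and 0 rose, where 7.65% of all genes were called, 3.85% lower and 3.80% higher, and the median difference was -0.43. Besides Ehd3, Clec4g and Gpr182 these were Lyve1, a hyaluronan receptor (-0.68, SE 0.11, limma adjusted p = 0.00641), Oit3, a zona pellucida domain protein of liver sinusoids (-0.51, SE 0.10, limma adjusted p = 0.0154), Stab1, the scavenger receptor related to Stab2 (-0.50, SE 0.10, limma adjusted p = 0.0217), and Kdr (-0.43, SE 0.09, limma adjusted p = 0.0214). Stab2 and Cdh5 had differences of 0.03 (SE 0.10) and 0.05 (SE 0.12) in that fit. Lyve1 read 8.24, 10.46, 8.88 and 10.64 in the control and 8.06, 8.75, 8.52 and 9.08 in the knockout arrays, so the groups overlapped through control 1 and control 3. Lyve1 lost its call with the covariate without control 1 (limma adjusted p = 0.0541), Kdr without control 1, control 2 or knockout 6 (up to 0.0743) and Stab1 when control 2, knockout 5 or knockout 6 was dropped (up to 0.0757). Without control 1 and control 4 together Lyve1 (0.0833), Oit3 (0.0513) and Kdr (0.107) were not called.

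The endothelial mean holds genes that differed between the groups themselves. Of its 22 genes Flt1, the VEGF receptor 1 (1.59, limma adjusted p = 0.0243), and Clec14a, an endothelial C-type lectin (0.55, limma adjusted p = 0.0198), rose, and Esam, an endothelial adhesion molecule (-1.46, limma adjusted p = 6.4e-06), and Plvap, a protein of endothelial diaphragms (-0.27, limma adjusted p = 0.00932), fell. Flt1 read 8.27, 9.76, 8.83 and 10.10 in the control and 10.63, 10.68, 10.98 and 11.02 in the knockout arrays. Esam read 11.40, 11.34, 11.51 and 11.62 in the control and 9.90, 9.97, 9.99 and 10.17 in the knockout arrays, with no low value in control 1. With these 4 genes left out of the mean, the same 7 members were called, and the difference of Clec4g and of Lyve1 was -1.08 and -0.64.

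Macrophage genes were dimmer and moved less as a block. Of the 9 members 4 were above the guide level in every array, and Timd4, a phosphatidylserine receptor of resident macrophages, was above it in 0 of 8. Ptprc read 6.79, 7.26, 6.59 and 6.73 in the control and 6.86, 6.93, 7.20 and 7.48 in the knockout arrays (0.28, SE 0.17, limma adjusted p = 0.508). Csf1r, the receptor of the macrophage growth factor CSF1, read 7.60, 8.29, 7.40 and 7.37 in the control and 7.42, 7.60, 8.30 and 8.32 in the knockout arrays (0.24, SE 0.26, limma adjusted p = 0.764). In both genes control 2, knockout 7 and knockout 8 were the highest arrays.

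The mean of 19 further macrophage and myeloid genes, among them the complement genes C1qa, C1qb and C1qc, was 7.51, 7.89, 7.42 and 7.32 in the control and 7.32, 7.36, 7.76 and 7.66 in the knockout arrays. It ranged over only 0.58 log2 units. Of the 19 genes 11 were above the guide level in every array and 2 in no array. Adgre1, the adhesion receptor that marks mature mouse macrophages, Csf1r and Cd5l, a secreted macrophage scavenger protein, had an r of at least 0.8 with it, 3 of 9 members against 0.356% of 19919 genes. Without control 2 and knockout 7 the r of Cd5l was 0.662 and 2 members were left, and with the median of those genes in place of the mean 1 was left. On deviations from the group means Vsig4 and Ptprc joined them (5 of 9, against 0.673%). After adjustment over all genes 0 members passed in the exact permutation test over all pairings, and 4 had an unadjusted p under 0.05. Of all 19919 genes 0 passed. The smallest p that 8 arrays allow is 2.48e-05, and a pass needs many genes near it. A miss in this test can therefore not be read as the lack of a relation. Marco, a scavenger receptor for particles and bacteria, and Timd4 did not follow the mean (r = -0.141, exact permutation p = 0.743, adjusted 1; rho -0.214, exact permutation p = 0.619, adjusted 1 for Marco).

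Of the receptors that mark Kupffer cells, Vsig4 and Clec4f were called lower with the covariate and not without it, and Marco had a difference of 0.02. Vsig4, the complement receptor of the immunoglobulin superfamily, read 8.89, 9.54, 8.33 and 7.50 in the control and 7.13, 6.83, 7.74 and 7.60 in the knockout arrays, and only control 4 reached into the knockout range. Its difference was -1.24 (SE 0.39, limma adjusted p = 0.104), and with the macrophage mean it fell by 1.22 (SE 0.19, limma adjusted p = 0.00611), where 6.67% of all genes were called, 3.32% lower and 3.35% higher. Clec4f, a galactose-binding C-type lectin used as a Kupffer cell marker, read 7.45, 7.91, 7.46 and 7.30 in the control and 7.08, 7.15, 7.01 and 7.10 in the knockout arrays. The groups of Clec4f did not overlap; the difference was -0.45 with no covariate (SE 0.12, limma adjusted p = 0.0517) and -0.44 with it (SE 0.10, limma adjusted p = 0.036). Left out singly, each array except knockout 6 ended that call (limma adjusted p up to 0.113), as did the median (0.0639) and array weights (0.0518).

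The upstream bases of Vsig4 are shown as those of the macrophage member with the largest difference, at chrX:96293439-96293688 (minus strand, RefSeq, GRCm38.p6).
Vsig4: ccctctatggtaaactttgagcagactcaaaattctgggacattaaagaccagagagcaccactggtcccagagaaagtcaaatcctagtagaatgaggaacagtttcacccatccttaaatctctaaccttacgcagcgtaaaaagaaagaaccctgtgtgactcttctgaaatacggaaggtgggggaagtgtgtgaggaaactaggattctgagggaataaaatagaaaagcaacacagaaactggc
None of the 3 motifs occurs in these 250 bases.

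Cd68, a lysosomal glycoprotein of macrophages, was the macrophage member that fell with no covariate (1 of 9, where 3.63% of all genes were called lower). It read 10.49, 10.56, 10.54 and 10.07 in the control and 10.06, 9.55, 9.69 and 9.94 in the knockout arrays. The groups did not overlap, but control 4 and knockout 5 were nearly level. The difference was -0.61 (SE 0.14, limma adjusted p = 0.0278), lost without control 1, control 2, control 3, knockout 6 or knockout 7 (limma adjusted p up to 0.0852), and -0.60 with the macrophage mean (SE 0.14, limma adjusted p = 0.04), lost without each array except control 4 and knockout 5 (up to 0.124) and after quantile normalization (0.058). Cd68 did not follow the macrophage mean (r = 0.181, exact permutation p = 0.65, adjusted 1; rho 0.19, exact permutation p = 0.665, adjusted 1). Adgre1 read 6.65, 7.37, 6.45 and 6.45 in the control and 6.54, 6.55, 7.19 and 6.98 in the knockout arrays, above the guide level in 3 of 8 (difference 0.09). Cd5l read 7.26, 8.31, 7.23 and 6.66 in the control and 6.69, 6.48, 7.60 and 7.08 in the knockout arrays (difference -0.40). Neither passed with or without the covariate, and the groups overlapped for both. Marco ranged from 6.58 to 7.0 and Timd4 from 6.24 to 6.69 over all arrays, with differences of 0.02 and -0.20.

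**Figure D5:**
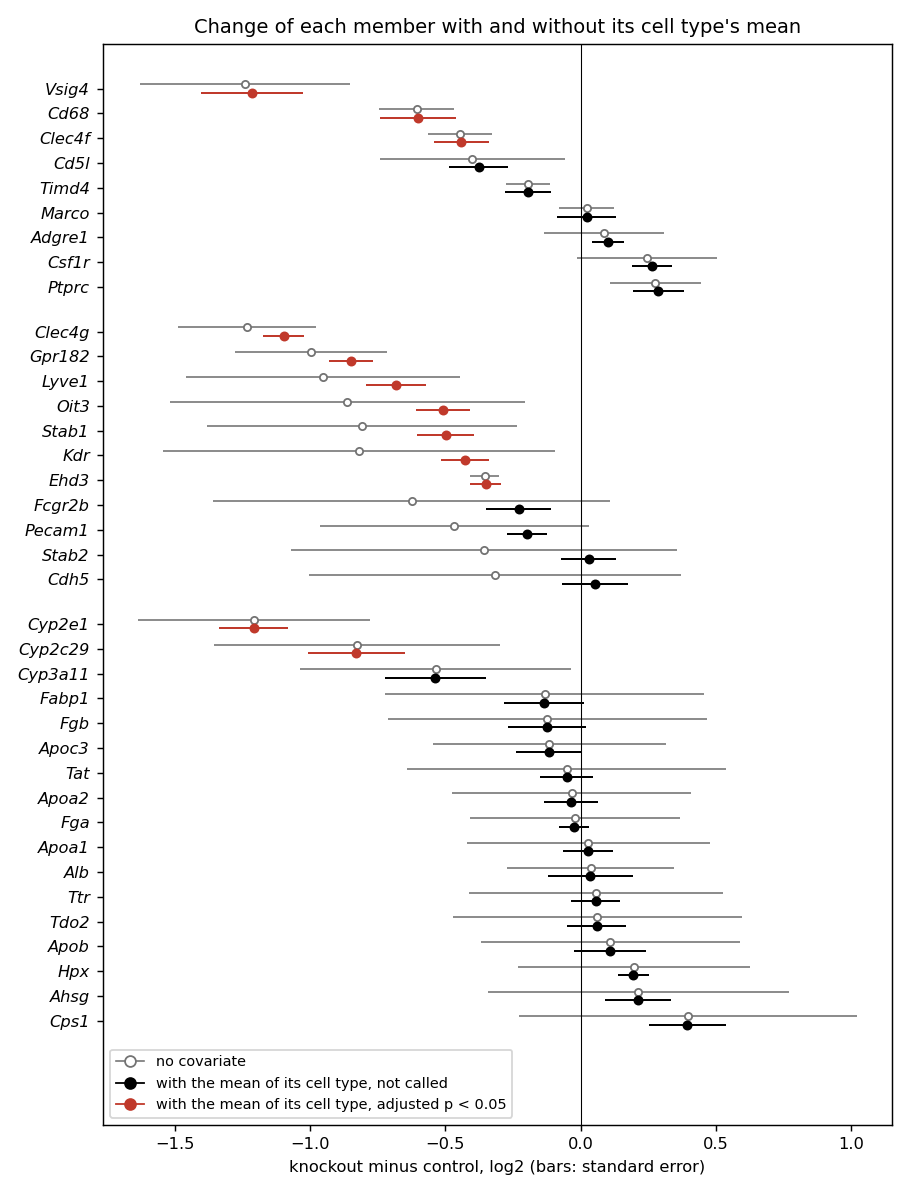
Knockout minus control difference (x axis, log2, bars show the standard error) of each of the 37 members, with no covariate (open grey) and with the mean of non-member genes of its cell type as covariate (filled, red where the limma adjusted p is under 0.05). The covariate narrows the bars of the hepatocyte genes and of the endothelial genes other than Ehd3. The 12 called members, from Clec4g and Cyp2e1 to Ehd3, all lie below 0.

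Over all 37 members, 3 fell and 0 rose with no covariate, where 7.38% of all genes were called (3.76% higher and 3.63% lower). An unadjusted limma p under 0.05 was found for 8 members, and for 3484 of all 19938 genes. The groups did not overlap for 4 members, Clec4g, Ehd3, Clec4f and Cd68, all lower in the knockout, while they did not overlap for 12.7% of all genes (6.32% lower). With the mean of each member's own cell type as covariate, 12 fell and 0 rose, in fits that called 8.23% (hepatocyte), 7.65% (endothelial) and 6.67% (macrophage) of all genes. With array weights 13 of the members were called lower and 2 higher in those fits, Cps1 (0.59, limma adjusted p = 0.0121) and Hpx (0.20, limma adjusted p = 0.0115). The share of all genes called in the weighted covariate fits was not taken. With no covariate, array weights called 1892 of all genes in place of 1472. With the hepatocyte and endothelial means together for every member, 10 fell and 0 rose, where 9.10% of all genes were called, 4.41% lower and 4.69% higher. Clec4f and Vsig4 were not called in that joint fit (limma adjusted p = 0.074 and 0.0894). In the fits with each member's own cell type, Cyp2e1, Clec4g, Gpr182, Oit3, Ehd3 and Vsig4 kept the call when any array was left out, and Cyp2c29, Stab1, Lyve1, Kdr, Clec4f and Cd68 did not. The covariate fit assumes 1 slope for both groups and leaves 5 residual degrees of freedom. Of 11 dissociation genes 10 were lower in the knockout arrays, as were 11437 of all 19938 genes. An unadjusted limma p under 0.05 was found for 5 of the 11. Ier2 alone was called (-0.92, limma adjusted p = 0.0434). The mean of the 11 genes ranged from 12.62 to 13.06 in the control and from 12.19 to 12.86 in the knockout group. The part of dissociation in these results was not tested.

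Among genes in none of the lists, those with a level most like Alb over the 8 arrays were Dlg4 (r = 0.975), Pzp (0.96), 4921507P07Rik (0.955), Serpina1c (0.954), one of several near-identical serpin genes, and Hamp (0.952). For Stab2 they were Adgrl4 (0.995), Adgrf5 (0.994), Cyyr1 (0.99), Aqp1 (0.99) and Rasgrp3 (0.989), and for Clec4f LOC100043315 (0.983), Ribc1 (0.971), Ccdc183 (0.953), Gdpd3 (0.952) and Flg2 (0.949). Clec4f itself differs between the groups, so genes picked for likeness to it do so through the choice. Serpina1c ranged from 8.67 to 11.76 and Adgrl4 from 6.79 to 10.96 over the arrays, but Dlg4 only from 10.06 to 10.47. 4921507P07Rik (6.16 to 6.38), LOC100043315 (5.37 to 5.61) and Flg2 (5.77 to 5.96) lay wholly under the guide level. The likeness is a description over 8 arrays.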

How the data were processed

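RNA of sorted stellate cells was hybridised to Affymetrix Mouse Gene 1.0 ST arrays, 4 per group. The values used are the deposited log2 levels; RMA normalization was done by the authors, per the labels' protocols. The deposited table held 35556 probe sets, of which 21789 had 1 gene symbol in the platform annotation, 1621 several and 12146 none listed. The probe set with the highest mean stood for each of 19938 genes. Knockout was compared with control in limma 3.58.1 (R 4.3.3) over all genes with Benjamini-Hochberg adjustment at 0.05, without and with the mean of non-member genes of a cell type as covariate. Relations with those means were tested by exact permutation over 40320 pairings and adjusted over all genes. Genes named were the members, the genes of the listed cell types that passed, and the 5 genes most like Alb, Stab2 and Clec4f. The members and lists were chosen with earlier results of these data known. The number of arrays limits the precision. In simulated data limma recovered 98% of genes changed by 1 log2 unit, and the covariate fit 94%. The changed genes were drawn at random from all genes, each with independent noise of its own spread. That recovery therefore does not apply to members with a wide spread, such as Cyp2e1 with no covariate (-1.21, SE 0.43). For the exact permutation test, 1000 genes were made to follow the hepatocyte mean. It recovered 100% of them at a noise SD of 0.1, but only 21% at 0.3. Its recovery with the endothelial and macrophage means was not tested. A member that missed in that test is therefore not read as lacking a relation with its mean. Promoter sequences and motif shares come from RefSeq (GRCm38.p6), in which 28 of the 38 genes were found. Alternatives are given in the closing section.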

Additional observations from a re-analysis of the deposited data

Results flagged for a closer look

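Cd68 in control 4 read 10.07, below the other control arrays, which lay between 10.49 and 10.56. The gap to the nearest of them was 0.842 of the range of the group, above Dixon's 95% critical value for a group of 4. It was the only array to stand apart in this way among 76 groups of 4 values examined, where chance marks about 1 group in 20.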

How the results depend on the processing

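No paired analysis was possible because the control arrays are numbered 1 to 4 and the knockout arrays 5 to 8, sharing no number. Over all genes 1472 were called, 1010 to 1409 with an array left out, 776 without control 1 and control 4, and 775 at an adjusted p under 0.01. Of the members 3 were called with no covariate, 1 at 0.01, and 2 to 5 with an array left out. After leaving out dim genes 5 members were called, as were 1497 of all 13688 genes kept. With the hepatocyte, endothelial and macrophage covariate 6, 9 and 5 members were called, and 10 with the first pair together. Of all 19938 genes these fits called 1641, 1526, 1330 and 1814. With each member's own covariate 12 were called, 7 to 11 with an array left out, 6 without control 1 and control 4, and 6 at 0.01. The share of all genes called was not taken for these alternatives to the own-covariate fit, so their counts are not read against it. Members with r of at least 0.8 numbered 27, against 26, 32 and 25 under the alternatives. The fits that join covariates, and the alternatives to the own-covariate fit, were chosen after seeing the data.

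Among the named genes, signs turned only for differences that were not called. Without control 1 and control 4 these were Alb (-0.19), Apoa1 (-0.17), Apob (-0.11), Ttr (-0.14), Tdo2 (-0.04), Ahsg (-0.03) and Adgre1 (-0.10). Array weights turned Apoa2 (0.12), Apoc3 (0.06), Fgb (0.18), Fga (0.12), Fabp1 (0.20), Tat (0.23) and Adgre1 (-0.05), and the mean of probe sets turned Fga (0.05). The endothelial covariate turned Stab2 (0.03) and Cdh5 (0.05), and the joint covariates Stab2 (0.03), Cdh5 (0.07) and Marco (-0.02). With the covariate, the median turned Stab2 (-0.18) and Cdh5 (-0.15), and leaving out control 1 and control 4 turned Stab2 (-0.13) and Cdh5 (-0.04). The cause was not tested.

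With an array left out the range was -0.29 to 0.22 for Alb, -0.36 to 0.28 for Apoa1, -0.44 to 0.19 for Apoa2, -0.52 to 0.12 for Apoc3, -0.32 to 0.40 for Apob, -0.37 to 0.35 for Ttr, -0.65 to 0.34 for Fgb, -0.33 to 0.22 for Fga, -0.63 to 0.24 for Fabp1, -0.08 to 0.82 for Cps1, -0.13 to 0.44 for Hpx, -0.54 to 0.33 for Tat, -0.33 to 0.39 for Tdo2, -0.27 to 0.54 for Ahsg, -1.04 to 0.15 for Stab2, -0.95 to 0.15 for Cdh5, -0.04 to 0.30 for Adgre1 and -0.07 to 0.07 for Marco. With the covariate it was -0.10 to 0.10 for Stab2 and -0.03 to 0.14 for Cdh5. With no covariate Gpr182 was called without control 1 (limma adjusted p = 0.0175), Clec4f without control 2 (0.0282) or control 4 (0.0322) and Vsig4 without control 4 (0.0168). With the covariate Cps1 was called higher without knockout 7 (limma adjusted p = 0.0402) and Cyp3a11 lower without knockout 8 (0.0333). With the covariate the median also gave a call for Pecam1 (limma adjusted p = 0.0127) and array weights for Apoc3 (0.033). No detection calls were used, so the guide level alone says which members were near background.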
